A study of Mus musculus with 20 samples.

Results

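The Mediator complex was examined through the transcripts of its 33 subunits in hematopoietic stem cells (HSCs) with and without the histone demethylase gene Kdm6b. The 33 genes were taken by symbol from a list of the complex and each matched 1 of 49671 gene IDs in the RNA count files. The list was chosen by the RNA level of Med1, whose transcript was known from these RNA libraries to be much lower in Kdm6b-KO than in Control. That difference chose the members and is given below as a description with no test. The other 32 genes belong to the list through their place in the complex.

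Mediator is a large assembly that carries signals from DNA-bound transcription factors to RNA polymerase II. Its head and middle modules contact the polymerase, its tail receives many activators, Med14 spans the modules as a scaffold, and a separable kinase module holds Cdk8 or Cdk19 with its cyclin. Med1, a middle subunit, is the contact for nuclear receptors and for GATA factors in blood cells. In the blood system the kinase module subunit Med12 is known to be needed for stem cell maintenance.

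HSCs came from C57BL/6 mice aged 8 weeks, sorted for cKit, Sca1 and CD150 and against CD48 and lineage markers. RNA was counted in 3 Control libraries, genotype Vav-CRE:Kdm6b+/+, and 3 Kdm6b-KO libraries, genotype Vav-CRE:Kdm6bfl/fl, so both groups carried the Cre recombinase, which the Vav driver expresses across blood lineages. Each RNA library came from marrow pooled over 3 male and 3 female mice. Open chromatin was mapped by ATAC-seq, in which a transposase cuts accessible DNA, from 10000 cells in each of 3 libraries titled Control and 3 titled 6bKO. The genotype label of all 6 ATAC libraries reads wild-type, so these groups rest on the titles alone. The other 8 of the 20 samples were not analysed here.

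The RNA libraries held 6793873 to 19336121 counts on genes, so that 3 counts stood for 0.148 to 0.461 CPM, each count divided by the TMM-scaled library size on the usual per-megaread scale. The targeted gene Kdm6b, counted over the whole gene, had 92.0, 282 and 221 CPM in Control against 142, 202 and 191 CPM in Kdm6b-KO. These groups overlapped, and because nothing here names the exons removed, a whole-gene count does not check the labels. The stem cell markers summed to 6028 to 8329 CPM in Control against 6576 to 6789 CPM in Kdm6b-KO, with all 20 detected in every library, and Cd48, the marker sorted against, stood at 4.60 to 16.7 CPM. Neutrophil and granulocyte markers summed to 1179.9 to 3630.05 CPM in Control against 4253, 193 and 190 CPM in Kdm6b-KO. The 6 erythroid markers summed to 174 to 327 CPM in Control against 211, 39.2 and 45.0 CPM in Kdm6b-KO, and the 4 mast cell and basophil markers to 12.9 to 72.8 and 5.29 to 8.91 CPM, where the groups did not overlap. B cell markers summed to 70.9 to 104 against 76.8 to 101.7 CPM, monocyte and macrophage markers to 24.3 to 27.03 against 23.5 to 31.4 CPM, and T cell markers to 2.29 to 4.68 against 5.51 to 7.77 CPM, the last low but not overlapping. Nearly all of the T cell sum was Cd4, with 3.69, 2.16 and 4.31 CPM in Control against 5.33, 6.65 and 7.77 CPM in Kdm6b-KO. Cd3d, Cd3e and Cd8a had at most 4 counts in any library, and none was higher in every Kdm6b-KO library. The part of these other cells in the Mediator values was not tested, and in bulk RNA fewer cells of a type and less RNA per cell cannot be told apart.

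The DNA at 4 of the annotated gene starts around which open chromatin was read is given here. Peaks can lie partly or wholly outside the bases printed. Med1 is the gene with the large transcript difference, Med16 had the largest positive log2 fold change, one that did not pass the test, Ccnc had one of the highest peaks in every library, and Med25 had no peak at its start in any. Each sequence runs 5′ to 3′ on the gene's own strand from 250 bases before the annotated start to 50 after it, as RefSeq gives it on GRCm38.p6, the assembly of mm10. The Med1 stretch is chr11:98192857-98193156 on the minus strand, Med16 is chr10:79908889-79909188 on the minus strand, Ccnc is chr4:21727451-21727750 on the plus strand and Med25 is chr7:44892375-44892674 on the minus strand. Capitals mark matches, on either strand, to 7 short motifs searched by letters.
Med1: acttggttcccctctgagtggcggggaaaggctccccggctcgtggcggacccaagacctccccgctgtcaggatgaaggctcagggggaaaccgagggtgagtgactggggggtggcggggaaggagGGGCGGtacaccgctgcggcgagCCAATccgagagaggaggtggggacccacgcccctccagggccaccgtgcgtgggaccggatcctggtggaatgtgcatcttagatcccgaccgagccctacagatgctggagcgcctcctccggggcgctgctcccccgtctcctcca
Med16: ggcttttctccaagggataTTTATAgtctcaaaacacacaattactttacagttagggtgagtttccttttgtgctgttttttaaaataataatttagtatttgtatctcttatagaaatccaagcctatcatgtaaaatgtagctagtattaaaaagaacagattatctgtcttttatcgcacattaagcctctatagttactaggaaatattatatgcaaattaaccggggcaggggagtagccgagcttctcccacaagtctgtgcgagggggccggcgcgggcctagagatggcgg
Ccnc: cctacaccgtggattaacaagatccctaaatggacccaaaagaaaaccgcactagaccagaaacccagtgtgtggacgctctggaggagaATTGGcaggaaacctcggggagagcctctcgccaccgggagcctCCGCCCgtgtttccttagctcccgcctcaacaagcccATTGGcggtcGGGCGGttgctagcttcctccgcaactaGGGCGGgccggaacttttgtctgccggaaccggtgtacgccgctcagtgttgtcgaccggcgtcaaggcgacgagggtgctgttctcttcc
Med25: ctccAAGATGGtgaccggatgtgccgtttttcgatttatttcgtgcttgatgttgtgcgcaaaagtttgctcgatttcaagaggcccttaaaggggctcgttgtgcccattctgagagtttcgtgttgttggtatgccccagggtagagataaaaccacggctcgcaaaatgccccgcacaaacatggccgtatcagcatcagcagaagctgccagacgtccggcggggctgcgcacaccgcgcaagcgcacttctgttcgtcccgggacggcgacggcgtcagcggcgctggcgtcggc

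The Med1 stretch held 22 CpG pairs and 1 match to GGGCGG, the GC box bound by Sp1-type factors. It also held 1 match to CCAAT, the box bound by NF-Y. This stretch lies wholly inside the annotated Med1 span, which ends at 98193313 on this minus-strand gene. The Med1 start used is therefore downstream of the outer 5′ end, and both matches lie inside the gene. The Ccnc start held 3 GC boxes and 2 CCAAT boxes on either strand, with 24 CpG pairs. The Med16 start was AT-rich, with 39.3% G and C, 8 CpG pairs and 1 match to TATAAA on the opposite strand. The Med25 stretch held 1 match to AAGATGG, the core of the YY1 motif, and 29 CpG pairs. So the stretch at a start without a peak was not poor in CpG. It too lies wholly inside its gene's annotated span, which ends at 44892705 on the minus strand. No motif matches overlapped in these 4 sequences.

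A start sequence was found for 28 of the 33 genes, all except Med8, Med23, Med24, Med30 and Cdk19. GGGCGG was present at 19 of the 28, or 67.9%, against 49.2% of 17492 protein-coding genes with such an entry. CCGGAAG, the core of ETS family sites, was present at 8, or 28.6%, against 12.9%, in Med4, Med6, Med10, Med14, Med15, Med17, Med18 and Med19. AAGATGG was found at 4 (14.3% against 7.18%), CCAAT at 11 (39.3% against 42.3%), TATAAA at 3 (10.7% against 14.8%) and TGACGTCA, the CRE, at 1 (3.57% against 2.54%). The NRF1 motif was at 0 of the 28 against 1.47%. These are matches of letters in a 300-base window and not measured sites. All members were tested in RNA, and the shares among RNA-tested genes alone were not computed. For a gene with more than 1 start entry, as for Med7, Med10, Med15 and Med27, a motif at any entry counted. The entry with the most CpG pairs was taken for CpG. The median of these per-gene values was 22 CpG pairs for the members, against 15 over all such genes.

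The Med1 transcript was the one member far from the rest. Med1 (ENSMUSG00000018160, chromosome 11, 98152154 to 98193313, mm10) had 1279, 1584 and 817 CPM in the Control libraries. In the Kdm6b-KO libraries it had 221, 172 and 179.95 CPM. The groups did not overlap, and the lowest Control library was 3.70 times the highest Kdm6b-KO library. The means were 1227 ± 386 and 191 ± 26.1 CPM (SD, n = 3 each), 6.43-fold lower in Kdm6b-KO, with a log2 fold change of -2.68 (SE 0.27). As this contrast chose the gene, no test is given.

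The Med1 value rested on 8327, 12466 and 11184 counts in Control against 2525, 1578 and 3638 in Kdm6b-KO, so counting error was small beside the spread between libraries. The log2 fold change lay between -2.91 and -2.45 when each library was left out in turn. Beside this, granulocyte markers summed to 4253 CPM in Kdm6b-KO replicate 1, which had 221 CPM of Med1, and to 193 and 190 CPM in replicates 2 and 3, and the part of these cells in the Med1 difference was not tested. Gm11604, a pseudogene annotated inside Med1, had 4, 5 and 8 counts in Control against 4, 1 and 1 in Kdm6b-KO. Of all counts on the 33 genes, Med1 took 41.5%, 49.2% and 34.6% in Control against 12.4%, 9.73% and 10.5% in Kdm6b-KO. This is a share of reads and not of molecules, because exon lengths were not used here.

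**Figure D1:**
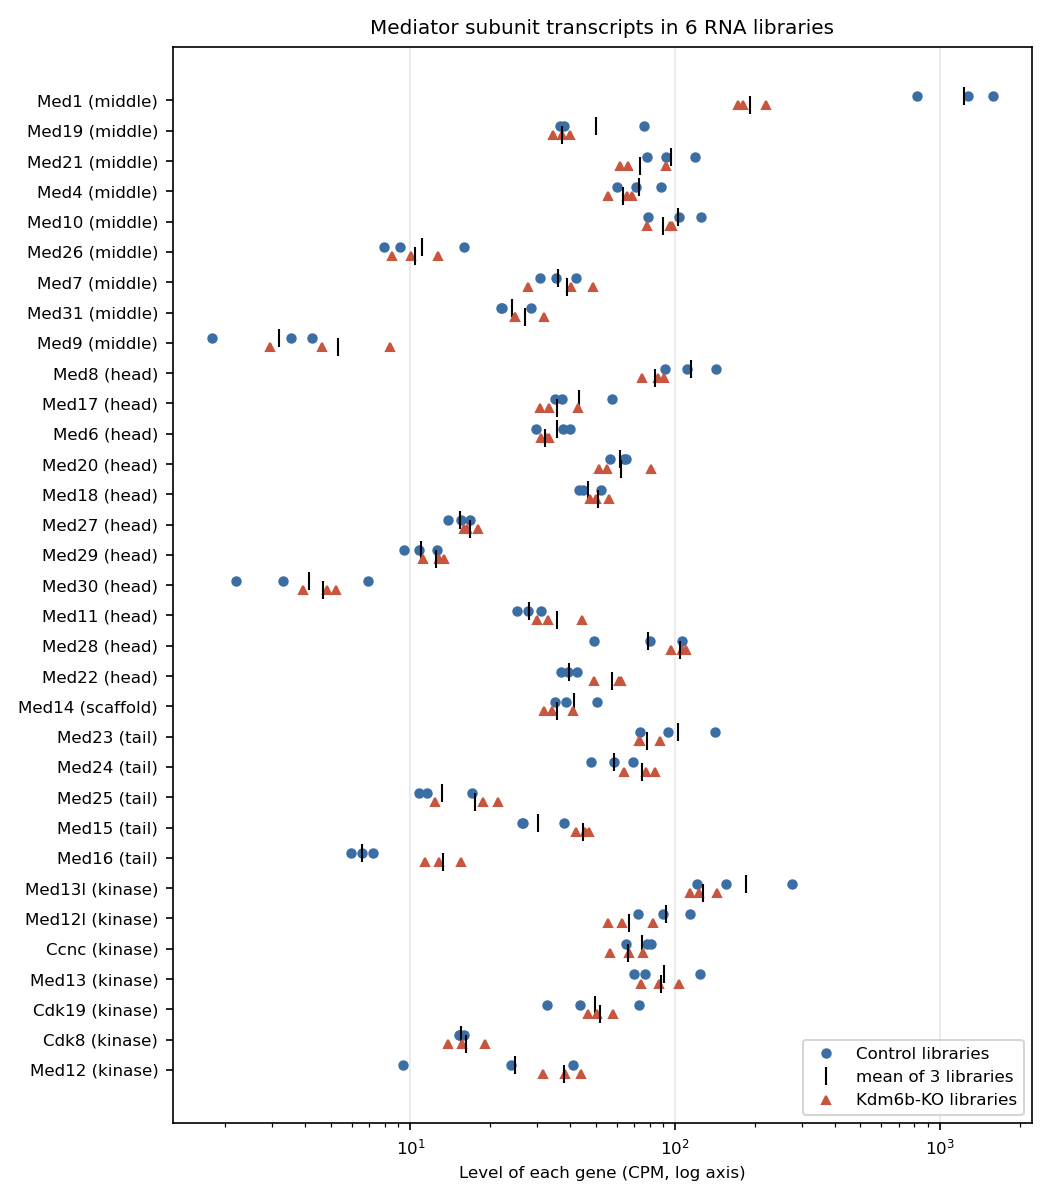
Level of each of the 33 Mediator subunit transcripts in CPM on a log axis, with circles for the 3 Control libraries, triangles for the 3 Kdm6b-KO libraries and bars for group means. Med1 at the top has a gap between groups from 221 to 817 CPM. Distances between genes also reflect gene length.

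The other 32 subunits showed no such shift. Their summed level was 1804, 1633 and 1548 CPM in Control against 1562, 1595 and 1531 CPM in Kdm6b-KO, and the groups overlapped. All 33 members passed the filter on low counts. By edgeR's quasi-likelihood test with Benjamini-Hochberg adjustment over 15185 genes, 0 of the 32 passed an adjusted p of 0.05, where 0.461% of all tested genes did, 0.244% higher and 0.217% lower in Kdm6b-KO. DESeq2 and limma-voom also called 0 of them. The adjusted p was 0.148 for Med16 and 0.228 to 0.981 for the rest. An unadjusted p under 0.05 was found for 4 of the 32, or 12.5%, against 14.8% of all tested genes.

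Of the 32 log2 fold changes, 18 were positive and 14 negative, where 49.9% of all tested genes were positive, with a median of 0.06, against a median of -0.0012 over all tested genes. They ranged from -0.54 to 1.01, and 26 lay within 0.5 of zero. Their SD was 0.38, against 0.57 over all tested genes. Counting Med1, the groups did not overlap for 5 of the 33, or 15.2%, against 20.5% of all tested genes. Higher in Kdm6b-KO were Med22, Med15 and Med16, where 11% of all genes were apart in that direction, and lower were Med1 and Med8, where 9.49% were. With 1 library left out, groups of fewer libraries are apart more often. Without Control replicate 1, 2 or 3 the count was 12, 8 or 13, or 36.4%, 24.2% and 39.4% of the members, against 38.3%, 25.1% and 33.1% of all genes then tested. Without Kdm6b-KO replicate 1, 2 or 3 it was 6, 12 or 7, or 18.2%, 36.4% and 21.2%, against 30.8%, 29.5% and 29%.

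**Figure D2:**
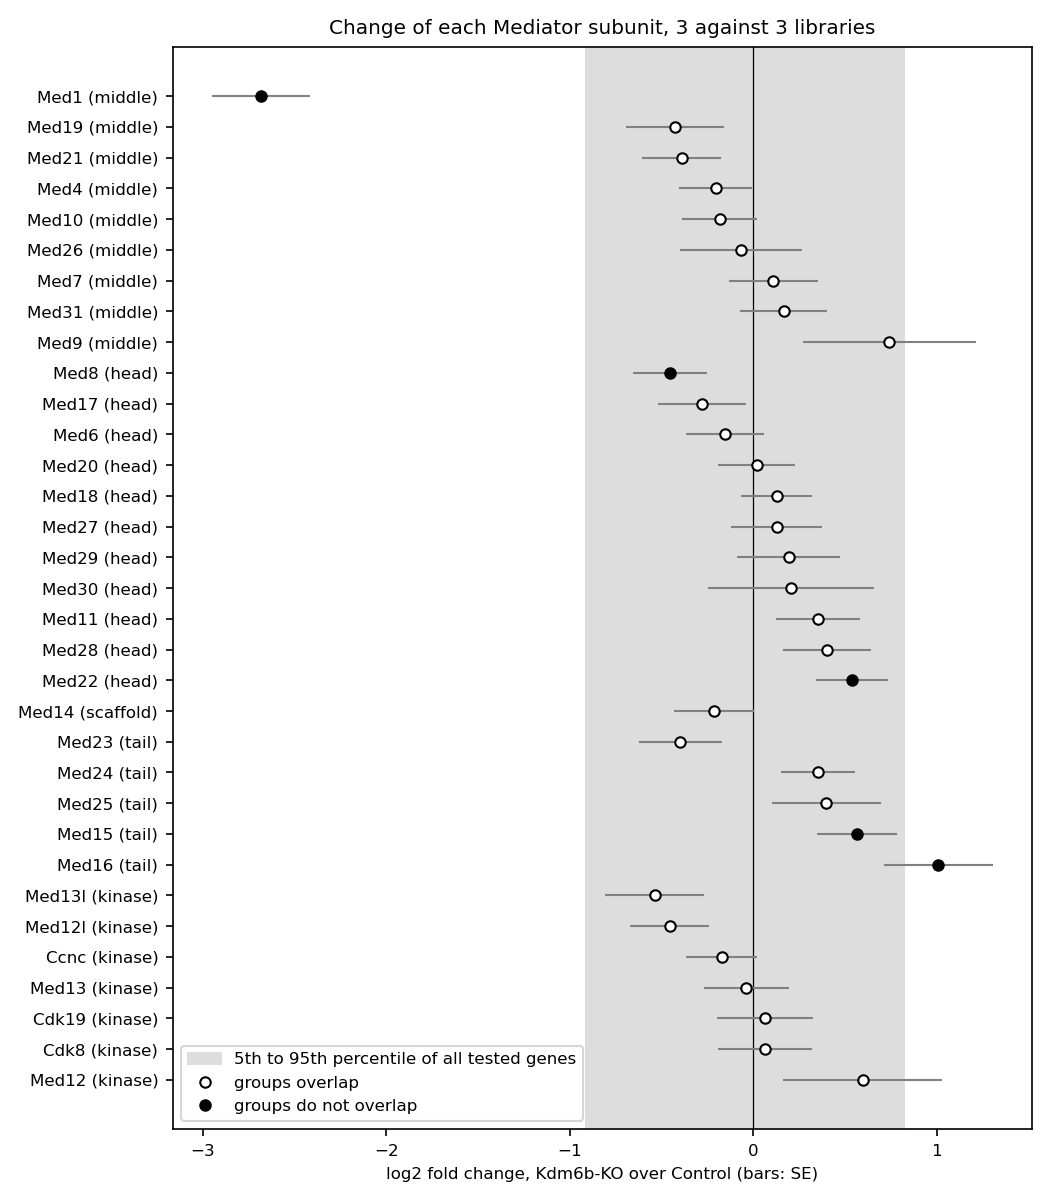
Log2 fold change of each subunit, Kdm6b-KO over Control, with bars for the SE and a grey band from the 5th to the 95th percentile of all tested genes. Filled points mark the 5 genes whose groups do not overlap. Med1, at -2.68, and Med16, at 1.01, lie outside the band.

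The middle module, which with the head touches the polymerase, holds Med1 and 8 further subunits. Among these 8, 3 had a positive and 5 a negative log2 fold change, with a median of -0.12 and 0 called. Med4, Med10, Med19 and Med21 had -0.21, -0.18, -0.43 and -0.39, and Med26, the subunit that brings in elongation factors, had -0.07. Med7, a core middle subunit also found in yeast, had 35.3, 30.8 and 42.2 CPM in Control against 49.1, 40.3 and 27.7 CPM in Kdm6b-KO. Med31, another conserved middle subunit, had 28.6, 22.2 and 21.9 CPM against 31.8, 24.8 and 24.8 CPM. Med9 was sparse, with 3.53, 1.78 and 4.24 CPM against 4.63, 2.94 and 8.36 CPM. All 3 genes had overlapping groups, and Med9, at 0.74 (SE 0.47, adjusted p = 0.484), had the largest value of the 8, which was 0.24 without Kdm6b-KO replicate 3 and 1.03 without Control replicate 3.

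Med14, the scaffold that ties the modules together, had 50.7, 35.1 and 38.7 CPM in Control against 34.2, 41.0 and 32.1 CPM in Kdm6b-KO. The groups overlapped, at -0.21 on the log2 scale (SE 0.22, adjusted p = 0.692).

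The head module had 8 positive and 3 negative log2 fold changes among 11 subunits, with a median of 0.13 and 0 called. Med22, a small head subunit that pairs with Med11 in yeast, had 37.0, 39.5 and 42.7 CPM in Control against 49.5, 61.2 and 62.5 CPM in Kdm6b-KO. Every Kdm6b-KO library lay above every Control library, and the log2 fold change of 0.54 (SE 0.20) had an adjusted p of 0.228. Med8, which joins Med18 and Med20 in the movable jaw of the yeast head, had 143, 111 and 91.7 CPM against 85.9, 75.1 and 90.7 CPM. The groups were apart only narrowly, and the log2 fold change of -0.45 (SE 0.20) had an adjusted p of 0.320. Its partners Med18 and Med20 had 0.13 and 0.02 on the log2 scale. Med6 and Med17, both conserved core subunits, had -0.15 and -0.28. Med27, Med28, Med29 and Med30, subunits of the larger animal complex, had 0.13, 0.40, 0.19 and 0.21.

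The tail module, the landing place of many activators, held the subunit with the largest positive value. Med16 (chromosome 10, 79894706 to 79908938) had 7.22, 5.97 and 6.58 CPM in Control against 11.4, 12.9 and 15.5 CPM in Kdm6b-KO. All 3 Kdm6b-KO libraries lay above all Control libraries, at means of 6.59 ± 0.623 and 13.2 ± 2.09 CPM (SD, n = 3 each). The log2 fold change of 1.01 (SE 0.30) lay at the 97.1st percentile of tested genes and did not pass the test (adjusted p = 0.148). Over 12 alternative fits its adjusted p ranged from 0.0518 to 0.458.

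Med15, a tail subunit contacted by SREBP and Smad factors, had 26.4, 26.6 and 37.8 CPM in Control against 42.3, 47.2 and 45.5 CPM in Kdm6b-KO. These groups also did not overlap, at 0.57 on the log2 scale (SE 0.22, adjusted p = 0.253). Med24 and Med25 had 0.35 and 0.40 on the log2 scale with overlapping groups. Med23, the tail subunit through which Elk1 acts, had 73.9, 141 and 93.7 CPM against 73.1, 87.7 and 73.8 CPM and a log2 fold change of -0.40. So 4 of the 5 tail values were positive, with a median of 0.40 and 0 called.

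The kinase module, which binds core Mediator reversibly, is built from 3 pairs of paralogs and 1 cyclin. Cdk8, the founding kinase, had 15.2, 15.9 and 15.3 CPM in Control against 13.9, 19.1 and 15.7 CPM in Kdm6b-KO. Its paralog Cdk19 had 73.1, 32.7 and 43.7 CPM against 46.8, 58.3 and 50.8 CPM. Both overlapped between groups at log2 fold changes of 0.07 (SE 0.25) and 0.06 (SE 0.26). Cyclin C, from Ccnc, the partner of both kinases, had 65.4, 77.9 and 80.8 CPM against 66.9, 75.4 and 56.8 CPM.

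Med12, the subunit that switches on the kinase, had 9.37, 24.0 and 41.1 CPM in Control against 31.6, 44.1 and 38.2 CPM in Kdm6b-KO. Control replicate 1 was far below the other libraries, and the log2 fold change was 0.60 (SE 0.43, adjusted p = 0.562). It was 0.22 without that library and 1.17 without Control replicate 3. Its paralog Med12l had 72.3, 113 and 90.02 CPM against 62.9, 82.6 and 55.9 CPM, at -0.46 on the log2 scale (SE 0.22, adjusted p = 0.344). The Med12l span overlaps 8 other annotated genes, among them the purine receptor gene P2ry14, and the strand setting of the counting is not given, so its counts are uncertain.

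Med13, the link between kinase module and core, had 125, 69.8 and 76.9 CPM in Control against 86.7, 103 and 74.1 CPM in Kdm6b-KO, overlapping at a log2 fold change of -0.04 (SE 0.23). Med13l, its paralog, had 277, 156 and 120.4 CPM against 123, 144 and 114 CPM. This gave the most negative value after Med1, -0.54 on the log2 scale (SE 0.27, adjusted p = 0.372), and the groups overlapped. It was -0.12 without Control replicate 1, the library that held 277 CPM, and -0.77 without Control replicate 3. In all, 3 of the 7 kinase module values were positive and 4 negative, with 0 called.

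Med1 lies on the same chromosome as Kdm6b, and so do 6 other subunits. Of the 1110 tested genes on chromosome 11, 2.43% were called, against 0.461% of all 15185 tested genes. Why the share was higher on this chromosome, and its part in the Med1 difference, was not tested. Med11 is nearest to Kdm6b, at 1.04 Mb, and had 25.3, 31.0 and 27.9 CPM in Control against 33.2, 30.0 and 44.3 CPM in Kdm6b-KO. Med31 lies at 2.80 Mb, Med9 at 9.45 Mb, Med13 at 16.9 Mb and Med7 at 23.0 Mb, and their values above overlapped between groups. Med1 itself lies at 28.8 Mb. Med24, at 29.3 Mb and the subunit closest to Med1, had 48.2, 58.8 and 69.1 CPM against 77.5, 64.2 and 83.5 CPM. The log2 fold changes were 0.35 for Med11 and 0.35 for Med24, with adjusted p of 0.493 and 0.432.

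The genes next to Med1 were also read from the same fit. Within 200 kb of it, 7 genes were tested and 0 were called, with 1 of the 7, Arl5c, at an unadjusted p under 0.05. Fbxl20, an F-box gene and the nearest tested gene past the end of Med1, had 38.4, 35.6 and 29.4 CPM in Control against 27.2, 36.1 and 42.8 CPM in Kdm6b-KO, a log2 fold change of 0.04 (SE 0.23). Cdk12, a transcription elongation kinase gene, lies 9.12 kb beyond the Med1 span on its upstream side. It had 48.2, 66.1 and 53.5 CPM against 37.8, 50.7 and 38.1 CPM, or -0.41 on the log2 scale (SE 0.21, adjusted p = 0.382). Both had overlapping groups. The remaining 5, Arl5c, Cacnb1, Rpl19, Stard3 and Pgap3, had -0.60, 0.18, -0.59, 0.31 and 0.35.

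**Figure D3:**
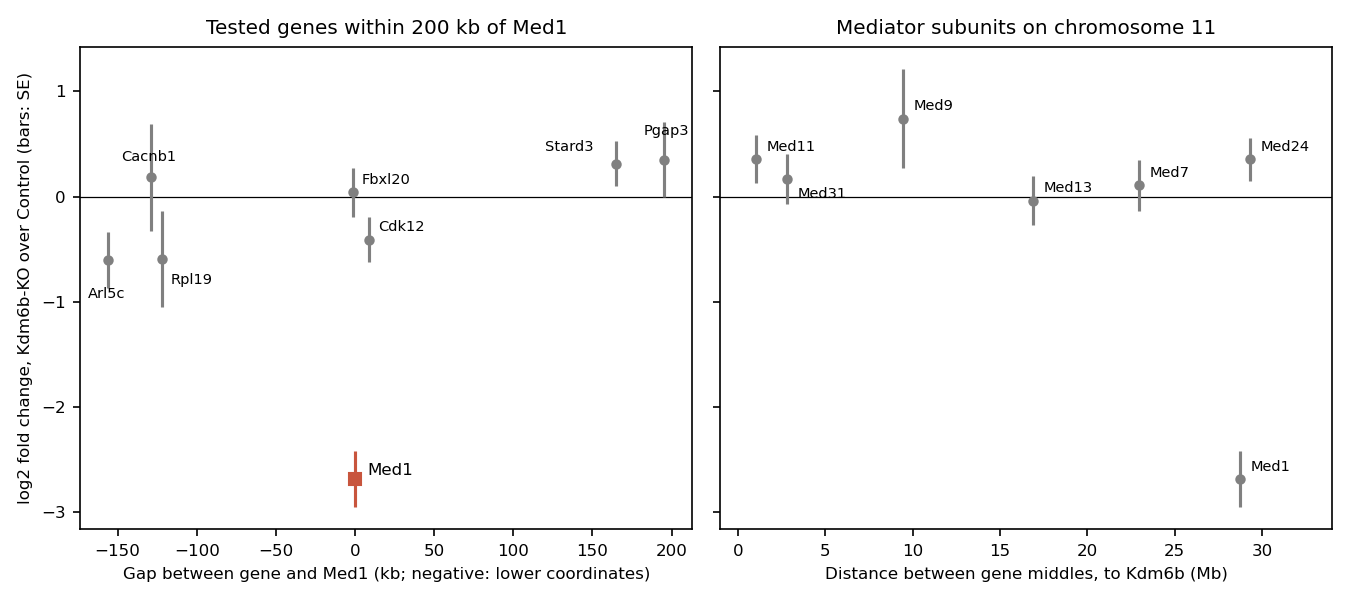
Log2 fold change with its SE for the tested genes within 200 kb of Med1, by gap in kb (left), and for the 7 subunits on chromosome 11, by distance to Kdm6b in Mb (right). Med1 is at -2.68 in both panels, and the other genes lie between -0.60 and 0.74.

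Open chromatin was not used to choose the genes. At 23 of the 28 subunits with an annotated start, or 82.1%, all 6 ATAC libraries had a peak within 1 kb of it. The same held for 44.0% of protein-coding genes and for 72.2% of the 9773 of them tested in RNA. The 5 subunits with no start entry were read over the whole gene and 1 kb around it, and all had a peak in every library. The number of the 33 with a peak was 30, 32 and 32 in Control and 30, 32 and 32 in the libraries titled 6bKO. The difference in means was 0, at an exact two-sided permutation p of 1.0, where 3 against 3 libraries cannot give less than 0.1. No subunit had peaks in all libraries of one title and in none of the other, which held for 0.486% of protein-coding genes.

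The Med1 start had a peak in all 6 libraries. The peaks were 570, 590 and 797 bases wide in Control and 853, 559 and 885 bases in the libraries titled 6bKO. The authors' fold enrichment stood at the 80.4th, 88.3rd and 86.7th percentile of its own list in Control. In the libraries titled 6bKO it stood at the 75.4th, 71.3rd and 85.0th percentile, so the ranges overlapped. The peaks covered between 176 and all 300 of the Med1 bases printed above. Their summits lay 367 to 480 bases upstream of the start used, outside the printed stretch. That start is internal to the annotated Med1 span, and all 6 peaks contained the outer 5′ end of the span, at 98193313. Open chromatin at the Med1 start was thus called in both sets of libraries.

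Inside the Med1 gene, Control replicates 1 and 2 each had 1 further peak, at different places, 11513 to 11831 and 5556 to 5936 bases downstream of the start. The other 4 libraries had none there. Every library also had peaks 42247 to 44113 bases downstream, past the end of Med1 and within the Fbxl20 span. Neither internal peak was found in a second library.

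**Figure D4:**
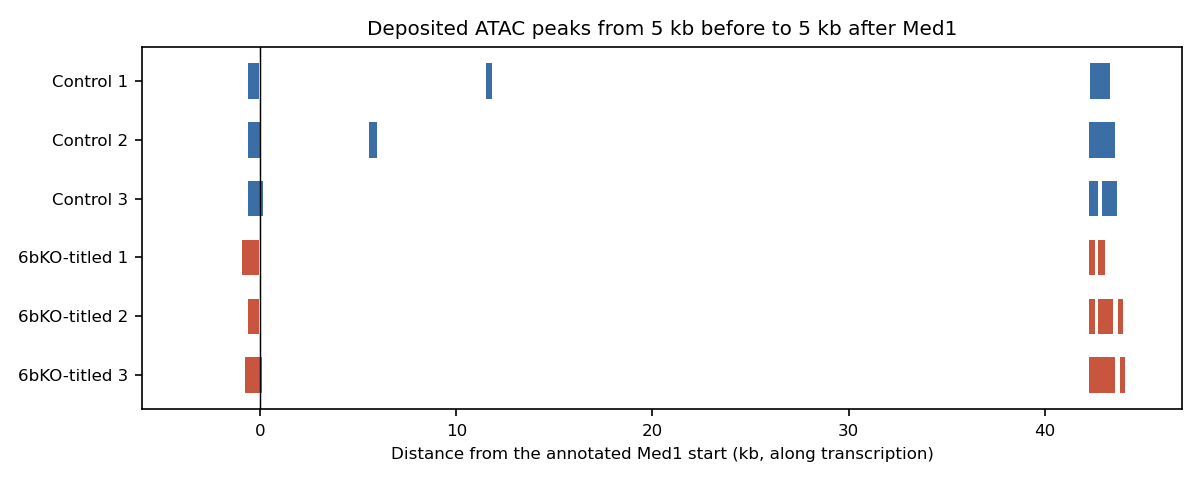
Deposited ATAC peaks from 5 kb before to 5 kb after Med1, 1 row per library. Distance in kb runs along transcription from the annotated start used, which is internal to the Med1 span. All 6 rows have a block at the start and blocks past 42 kb, and only the rows of Control replicates 1 and 2 have a block between.

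Subunits differed in how high their start peaks ranked. Med19 lay between the 98.3rd and 99.8th percentile in every list, Ccnc between the 96.4th and 99.5th, and Med11, the subunit nearest to Kdm6b, between the 95.8th and 99.7th. Med10, Med13l and Med22 had medians at the 59.3rd, 59.0th and 61.6th percentile. Med16 was at the 49.4th to 91.1st percentile. Its peak summits lay 277 to 308 bases downstream of the annotated start, outside the AT-rich stretch printed above. Med15 was found in 5 libraries and ranked as low as the 7.52nd percentile.

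In 4 subunits, 1 library lacked the peak. Med9 and Cdk8 had none in Control replicate 1, and Med15 and Med27 none in replicate 1 of the libraries titled 6bKO. These lists held 47450 and 63682 peaks, and the other 4 held 44739 to 69729, with read depth unknown. Med25, a tail subunit that binds viral and cellular activators, had no peak within 1 kb in any library, as did 6.57% of tested genes. Its nearest peak edge was 3164 to 3220 bases from the annotated start in all 6 lists. Its transcript was nevertheless counted at 10.8 to 21.3 CPM.

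**Figure D5:**
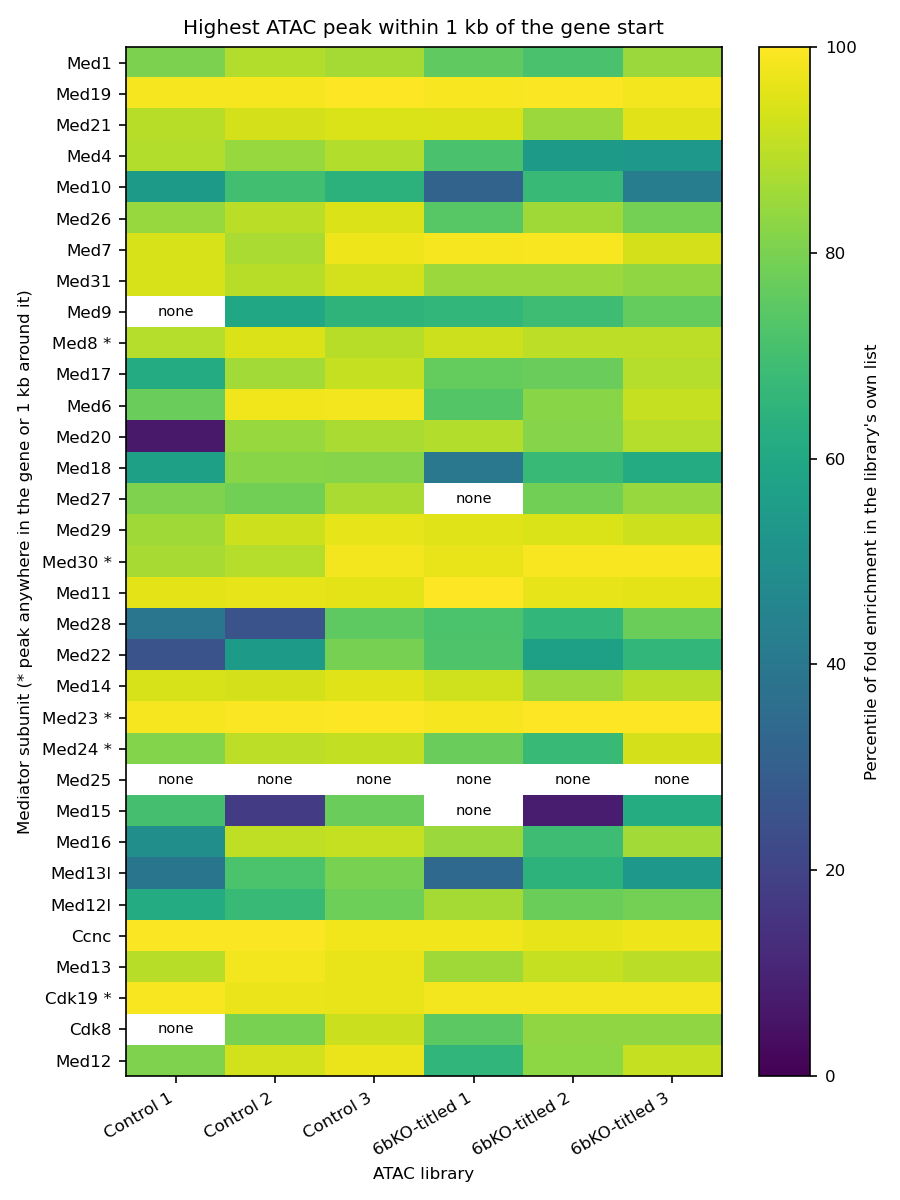
Percentile of the authors' fold enrichment, within each library's own list, of the highest peak within 1 kb of each subunit's start. Stars mark genes read over their whole span, and white cells marked none had no peak. Med25 has none in any of the 6 libraries, and Med9, Cdk8, Med15 and Med27 each lack 1.

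Partners of Mediator in transcription were read from lists of machinery genes, by counts and medians beside the 0.461% of all tested genes called and the overall median near 0. Of 12 RNA polymerase II subunits, 6 were positive and 6 negative, with a median of -0.02 and 0 called. The list's rule named the pair of highest mean CPM, a measure not adjusted for gene length. These were Polr2b, the second largest subunit, with 190 ± 36.8 CPM in Control, with a log2 fold change of -0.26, and Polr2e with 0.12. Of 30 tested general transcription factor genes 13 were positive and 17 negative, with a median of -0.09. Ercc2, a helicase of TFIIH, rose from 4.15, 6.73 and 5.85 CPM to 12.4, 17.1 and 19.5 CPM (log2 fold change 1.55, SE 0.32, adjusted p = 0.0451). It was the 1 gene called in these 5 lists, and its groups did not overlap.

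Pause release genes and transcription kinases, the step after Mediator, had 10 positive and 11 negative values of 21 and a median of -0.05, with 0 called. Supt5, a subunit of the pausing factor, had 0.11. Cohesin and its loader, which are found with Mediator at enhancers and promoters, had 10 negative values of 10, a median of -0.23 and 0 called. The cohesin release factor gene Wapl had 1468, 1078 and 549.7 CPM in Control against 539, 519 and 444 CPM in Kdm6b-KO, and the groups lay narrowly apart. Its log2 fold change of -1.04 (SE 0.30) had an adjusted p of 0.148, while Smc1a, a ring subunit, had -0.20. Factors that bind Med1 or act with it had 9 positive and 7 negative values among 16 tested of 18, a median of 0.15 and 0 called. Crebbp, an acetyltransferase, had 893 ± 207 CPM in Control, with -0.64 on the log2 scale (SE 0.23, adjusted p = 0.228), and Gata2, a stem cell GATA factor, 0.19 (adjusted p = 0.711).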

How the data were processed

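For RNA the authors deposited 1 file of raw counts per library, by Ensembl gene, on mm10. The submitters' processing notes name HTSeq 0.8.0, Partek 6.6, STAR 2.0.4 and featureCounts 1.4.5 of Subread without their roles. Strand and annotation release are not stated there. Lines for unassigned reads were left out; reads assigned to genes made up 16.5% to 19.7% of each file. Of 49671 IDs, 49326 matched a symbol. Positions and start sequences are from RefSeq tables of GRCm38.p6.

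The RNA test was that of edgeR 4.0.16, run in R 4.3.3 (filterByExpr, TMM, glmQLFit with robust = TRUE, then glmQLFTest for genotype, two-sided, Benjamini-Hochberg over 15185 genes). CPM use TMM-scaled library sizes. The SE is the size of the log2 fold change over the square root of F. Per the labels' protocols the RNA libraries are biological replicates from separate pools; for ATAC nothing says this, so that spread may be technical. No pair of RNA libraries in a group differed by less than a chi-square of 14.8 per degree of freedom, so none was merged. RNA alternatives used DESeq2 1.42.0 and limma 3.58.1 among others. The code was tested on simulated data.

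The deposited ATAC files hold the authors' peak lists, 1 per library. Of tools, the submitters' processing notes list MACS2, BWA 0.7.16a and cutadapt 1.16. In the deposited lists the fold enrichment is a ratio, p and q are −log10 values, and a score and summit offset are given; the score was not used. The smallest deposited −log10 q was 2.00. Peaks within 1 kb of an annotated start were counted; for 5 genes with no start entry the gene span plus 1 kb was used. Exact permutation tests used scipy 1.17.1.

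Members and gene lists were chosen with earlier results of these data known. Named in full were Med1, the subunits on chromosome 11, the kinase module, Med14, those called or with groups apart, and those with the 3 largest changes each way; from other lists the called genes or the 2 of highest mean CPM; beside Med1, the nearest tested gene on each side. Naming members by level was dropped, as no exon lengths were used; the CPM ranking within other lists also reflects length. Med18, Med20, Med23 and Arl5c were among those named after their values were seen. Markers are given as list sums, with Cd48 and the T cell markers also by gene, the latter named after their values were seen. One gene that the rule names is not reported here.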

Additional observations from a re-analysis of the deposited data

How the results depend on the processing

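Over 12 alternative RNA fits, 0 of the 32 members other than Med1 were called. The Med1 log2 fold change, a description since it chose the list, lay between -2.91 and -2.45. Scaling by library totals moved the median of all genes to 0.147 and that of the 32 other members to 0.21, and put Med13 at 0.11. Med13 was at 0.0050 with limma-voom. With each library left out in turn, that median ranged from 0.014 to 0.11 and the count of members with groups apart from 6 to 13, with fewer samples to compare. Over the same fits Med13 ranged from -0.19 to 0.26, Cdk19 from -0.16 to 0.44, Cdk8 from -0.060 to 0.17 and Med7 from -0.090 to 0.31, so these signs are not settled; the cause was not tested. Med8 ranged from -0.59 to -0.27, Med11 from 0.17 to 0.47 and Med12l from -0.63 to -0.28. The correlations of same-numbered deviations were 0.0484, 0.169 and -0.11, and those of differently numbered ones ran from -0.197 to 0.114. No clear pairing by replicate number was seen, but 3 libraries a group cannot settle this. With the replicate block, 0 of the 32 were called, and the Med1 log2 fold change was -2.64. In ATAC, 26 members had a peak in all libraries within 250 bases and 29 within 5 kb, against 28, and 28 at a −log10 q of at least 5, and Med1 kept its start peak in every library under each of these. Read depth limits the peak lists and is unknown.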
